A study of Mus musculus with 36 samples.

Results

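The genes described here are 35 genes of cholesterol and fatty acid synthesis, chosen by name: 22 of sterol synthesis and its control, and 13 of fatty acid synthesis. Probe sets were taken where the platform annotation gave 1 of these symbols, which found 64 probe sets of 32 genes among the 12393 genes measured. Each gene was read on its brightest probe set. The expression of Acat2, Insig1 and Acsl3 was not analysed here. Acaca and Acss2 were measured but lay below the signal limit of about 123, so that 30 genes (20 sterol and 10 fatty acid genes) were among the 7436 genes tested.

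RNA came from PKBa-/- and wild type mouse embryonic fibroblasts, connective-tissue cells grown in culture. PKBa is the protein kinase B alpha encoded by Akt1, a kinase that acts downstream of insulin and growth factor receptors, and it is disrupted in PKBa-/- cells. Both kinds of cells were derived from 13.5-day embryos of crosses between heterozygous mice and were used between passages 15 and 20, and the labels do not say from how many embryos. Each genotype had 18 arrays: 4 at each of times 0, 6, 24 and 48, and at time 2 only replicates 1 and 2. The labels give no unit for the times. The series title names DMEM, a culture medium, while the protocol also describes a hormone mixture that induces adipocytes; which of them an array's cells received is not stated in the labels.

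Cells make cholesterol from acetyl-CoA through mevalonate, isoprenoid diphosphates, squalene and lanosterol, and make fatty acids from acetyl-CoA through malonyl-CoA, with elongases and desaturases acting on the product. Both pathways are controlled by the sterol regulatory element-binding proteins, transcription factors held in the endoplasmic reticulum with SCAP and INSIG proteins and released for cleavage when sterols are scarce. The protein encoded by Srebf2 acts mainly on sterol genes and those encoded by Srebf1 mainly on fatty acid genes, and signalling through PKB is known to raise their activity.

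Promoters are shown for 4 genes on which the results turn, Hmgcs1 and Idi1 as genes that differed between the genotypes late in the time course, and Mvk and Pmvk as genes that differed early. Each window runs from 250 bases before to 50 bases after the annotated start (RefSeq, build GRCm38.p6), printed 5′ to 3′ on the gene's strand, which is the plus strand for all 4. Capitals mark CCAAT boxes (CCAAT, or ATTGG where the box lies on the other strand), the motif of the factor NF-Y, and 1 match to TCACNCCAC, a motif like the sterol regulatory element. The windows are chr13:119690101-119690400 for Hmgcs1, chr13:8885356-8885655 for Idi1, chr5:114444019-114444318 for Mvk and chr3:89454291-89454590 for Pmvk, the last being 1 of the 2 windows that the annotation gives for that gene.
Hmgcs1: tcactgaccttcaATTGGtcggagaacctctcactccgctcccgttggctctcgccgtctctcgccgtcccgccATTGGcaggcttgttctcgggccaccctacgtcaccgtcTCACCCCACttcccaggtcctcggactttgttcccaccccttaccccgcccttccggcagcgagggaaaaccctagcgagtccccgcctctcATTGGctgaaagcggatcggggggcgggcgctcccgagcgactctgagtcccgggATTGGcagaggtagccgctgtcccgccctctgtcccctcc
Idi1: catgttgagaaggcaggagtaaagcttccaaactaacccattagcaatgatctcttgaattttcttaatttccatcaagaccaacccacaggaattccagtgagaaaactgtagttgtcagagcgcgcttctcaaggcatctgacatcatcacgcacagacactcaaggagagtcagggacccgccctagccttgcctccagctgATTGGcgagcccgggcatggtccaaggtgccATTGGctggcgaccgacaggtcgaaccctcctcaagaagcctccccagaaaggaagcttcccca
Mvk: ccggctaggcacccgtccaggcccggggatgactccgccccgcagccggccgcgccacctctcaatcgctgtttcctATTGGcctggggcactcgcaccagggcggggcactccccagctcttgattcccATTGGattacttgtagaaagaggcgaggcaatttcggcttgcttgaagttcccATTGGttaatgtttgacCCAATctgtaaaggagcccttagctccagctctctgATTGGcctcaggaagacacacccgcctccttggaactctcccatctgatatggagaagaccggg
Pmvk: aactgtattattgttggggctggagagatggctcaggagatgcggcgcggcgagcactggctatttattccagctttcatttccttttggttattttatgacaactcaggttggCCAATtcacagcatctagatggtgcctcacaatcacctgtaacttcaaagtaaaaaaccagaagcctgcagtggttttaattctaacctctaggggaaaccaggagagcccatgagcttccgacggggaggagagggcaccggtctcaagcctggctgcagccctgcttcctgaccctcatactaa
The Hmgcs1 window held 4 CCAAT boxes and the match to TCACNCCAC (its capitals TCACCCCAC), Mvk held 5 CCAAT boxes, Idi1 2 and Pmvk 1. The promoter table covers 18 of the sterol genes and 10 of the fatty acid genes, Acat2, Insig1 and Acsl3 among them. Of the 18 sterol genes, 16 (88.9%) held a CCAAT box on either strand, against 41.1% of all 27025 genes; of the 10 fatty acid genes, 7 did. TCACNCCAC was found in 1 of the 18 sterol genes and in 1.44% of all genes, and the E-box CACGTG in 4 of the 18 and in 8.09% of all genes. The motifs were searched on both strands, and they do not overlap one another in the windows printed. A match says only that these letters are present.

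Values are signals on a linear scale, and differences are log2 differences of (signal + 32) ± SE from limma, with p adjusted over all tested genes. A gene that met an adjusted p under 0.05 is said to have passed. The highest PKBa-/- array read 103 for Akt1 and the lowest wild type array 843, on the brightest probe set. Median signals of the 36 arrays lay between 134 and 145. Within a group, replicates 1 and 2 form a pair, as do replicates 3 and 4. The mean correlation between arrays was 0.993 inside a pair and 0.969 across pairs, so the 2 arrays of each pair were averaged before the fit. The labels do not say that replicates were separate cultures, and the p-values measure the spread between pairs, which may be technical. In wild type cells at time 0, replicates 3 and 4 read lower than replicates 1 and 2 for Hmgcs1, Idi1, Fdps, Fdft1, Cyp51 and Msmo1, so changes from time 0 in wild type cells are also given within each pair for the genes that passed. The share of all genes whose arrays did not overlap is not given, so a lack of overlap describes only the gene named. In such bulk RNA, fewer cells of a kind and less RNA per cell cannot be told apart.

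The first comparison asked how the genotypes differed at each time. At time 24 sterol synthesis genes were higher in PKBa-/- cells: 11 of 20 tested sterol genes passed as higher and 0 as lower, where 9.79% of all tested genes passed as higher and 10.7% as lower. The median difference of the sterol genes was 0.79, and that of all tested genes was 0.01. Within replicates 1 and 2 the sterol median was 0.85, and within replicates 3 and 4 it was 0.71. At time 48, 7 sterol genes passed as higher and 0 as lower, beside 12.4% and 10.8% of all genes, with a median of 0.46 against 0.04 for all genes. With the 36 arrays taken as replicates, 13 sterol genes were called higher at time 48, beside 1978 of all 7436 genes.

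Of the enzymes at the head of the pathway, Hmgcs1 and Mvd differed at both late times and Mvk and Pmvk, which act between them, did not pass. Hmgcs1 encodes the cytosolic HMG-CoA synthase. At time 24 its signal was 2834, 2692, 1837 and 1695 on the PKBa-/- arrays and 954, 1046, 619 and 665 on the wild type arrays. The lowest PKBa-/- array lay above the highest wild type array, and the log2 difference was 1.43 ± 0.28 (adjusted p = 0.00358), or 2.69-fold on this scale. At time 48 it was 1350.5, 1732, 1269 and 1294 in PKBa-/- cells and 863, 752, 746 and 379 in wild type cells, again without overlap, a difference of 1.06 ± 0.28 (adjusted p = 0.0177). Mvd, the mevalonate diphosphate decarboxylase, differed by 1.33 ± 0.22 at time 24 and 0.83 ± 0.22 at time 48 and passed at both. In the fit of single probe sets, a dimmer probe set of Mvd did not pass at time 48 (0.51 ± 0.19, adjusted p = 0.0837). Neither did a dimmer probe set of Hmgcs1 (0.74 ± 0.28, adjusted p = 0.0783), while the other Hmgcs1 probe sets passed. The difference of Mvk was 0.42 ± 0.18 (adjusted p = 0.123) at time 24 and 0.28 ± 0.18 (adjusted p = 0.299) at time 48, and that of Pmvk was 0.39 ± 0.34 (adjusted p = 0.485) and 0.47 ± 0.34 (adjusted p = 0.369).

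Idi1 encodes the isomerase of isopentenyl diphosphate. Its signal at time 24 was 838, 755, 434 and 541 in PKBa-/- cells and 257, 265, 239 and 195 in wild type cells, a difference of 1.28 ± 0.25 (adjusted p = 0.00293). All 4 PKBa-/- arrays lay above all 4 wild type arrays, although PKBa-/- replicates 3 and 4 read lower than replicates 1 and 2. Fdps, the farnesyl diphosphate synthase, had the highest difference of the sterol genes at time 24. It read 1922, 1781, 1262 and 1497 in PKBa-/- cells and 610.4, 643, 393 and 418 in wild type cells (1.60 ± 0.29, adjusted p = 0.00192), which is 3.03-fold, and the 2 groups of arrays did not overlap. At time 48 both genes passed again, Fdps with 0.95 ± 0.29 (adjusted p = 0.0324) and Idi1, at the threshold, with 0.73 ± 0.25 (adjusted p = 0.0494). In the fit of single probe sets the same Idi1 probe set had an adjusted p of 0.0554 and did not pass. At time 24, within the pairs, the Fdps difference was 1.51 in replicates 1 and 2 and 1.69 in replicates 3 and 4.

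Of the enzymes that commit farnesyl diphosphate to sterols, Fdft1, the squalene synthase, passed at time 24 (1.07 ± 0.25) and not at time 48 (0.51 ± 0.25, adjusted p = 0.16). Sqle, the squalene epoxidase, did not pass at either time (0.51 ± 0.21 and 0.28 ± 0.21). Lss, which closes the ring to lanosterol, passed at time 24 (0.66 ± 0.19) and had a difference of 0.37 ± 0.19 at time 48 (adjusted p = 0.185).

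Among the enzymes that turn lanosterol into cholesterol, Cyp51, the lanosterol demethylase, differed at both late times. Its signal at time 48 was 588, 559, 566 and 606 in PKBa-/- cells and 252, 209, 142 and 108 in wild type cells. The PKBa-/- arrays lay close together and the wild type arrays were all lower, with replicates 3 and 4 the lowest, and the difference was 1.60 ± 0.32 (adjusted p = 0.00345), or 3.03-fold. At time 24 it was 1.42 ± 0.32 (adjusted p = 0.00744). Dhcr7, the reductase of the last step, read 362, 359, 343 and 354 in PKBa-/- cells and 149.6, 163, 132 and 118 in wild type cells at time 48, without overlap (1.17 ± 0.20, adjusted p = 0.00121). Its difference at time 24 was 1.15 ± 0.20.

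The enzymes that remove methyl groups from the sterol ring also differed at time 24: Msmo1, a sterol oxidase, differed by 1.24 ± 0.28, Nsdhl, a decarboxylating dehydrogenase, by 0.92 ± 0.22, and Hsd17b7, a ketosteroid reductase, by 1.10 ± 0.18, and all passed. At time 48 Hsd17b7 still passed (0.65 ± 0.18), whereas Msmo1 (0.80 ± 0.28, adjusted p = 0.0558) and Nsdhl (0.46 ± 0.22, adjusted p = 0.157) did not. Tm7sf2, Ebp and Sc5d, a reductase, an isomerase and a desaturase of the sterol ring, did not pass at either late time, with differences between 0.03 (Ebp) and 0.43 (Tm7sf2) at time 24. Stard4, a sterol carrier, and Aacs, which activates acetoacetate for lipid synthesis, differed by 0.09 and 0.23 at time 24 and by -0.35 and 0.03 at time 48 and did not pass.

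**Figure D1:**
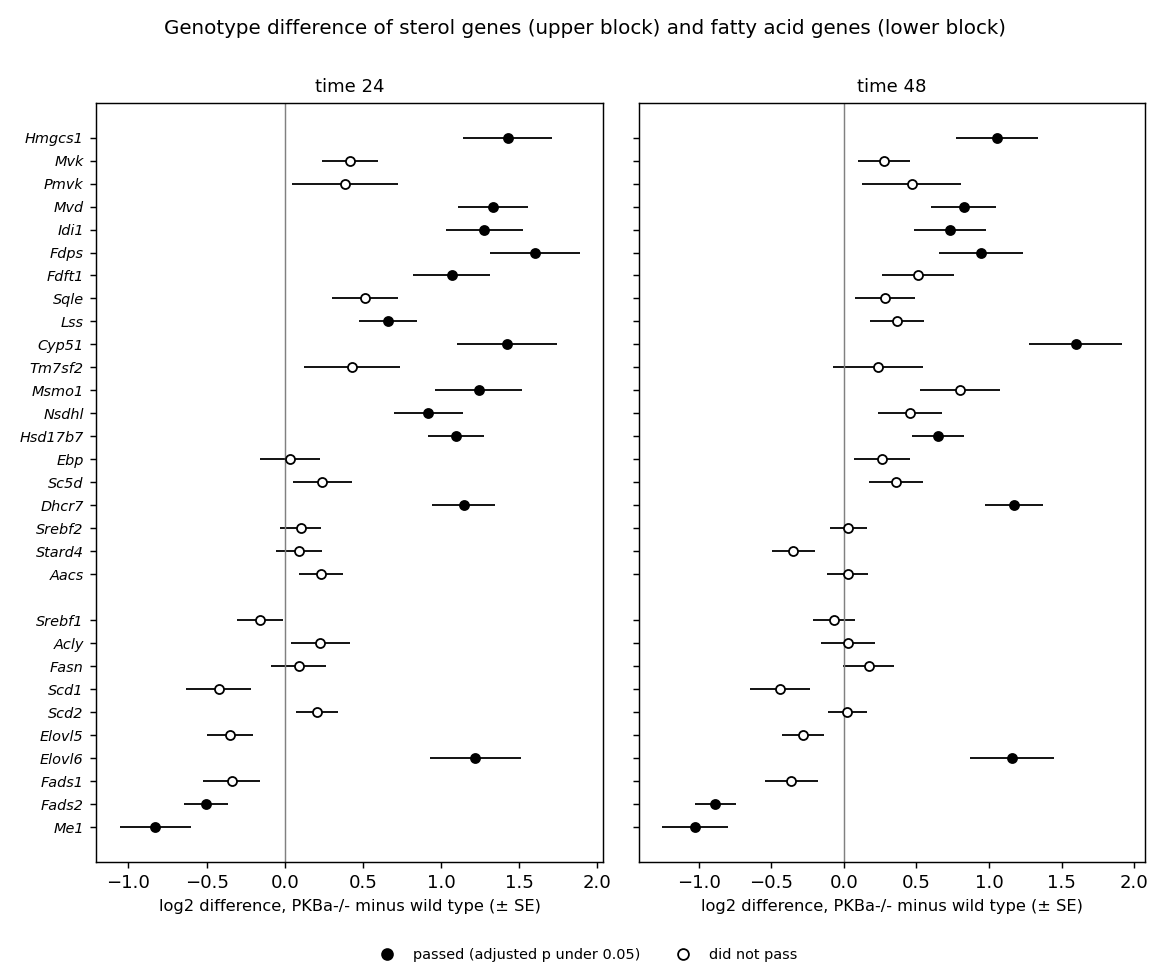
Log2 difference of (signal + 32), PKBa-/- minus wild type, ± SE for the 20 tested sterol genes (upper block) and 10 tested fatty acid genes (lower block) at times 24 and 48, with filled points for genes that passed. Sterol genes lie mostly to the right of 0, up to 1.60 at both times, while fatty acid genes lie on both sides, with Elovl6 at the right and Me1 and Fads2 at the left.

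Earlier in the time course the sterol genes as a set did not stand higher in PKBa-/- cells. At time 0, 0 of 20 sterol genes passed as higher and 0 as lower in limma, beside 6.48% and 8.34% of all genes, and 1 had an unadjusted p under 0.05. The median was 0.12 at time 0, but it was -0.20 within replicates 1 and 2 and 0.47 within replicates 3 and 4, so the pairs differed in sign. Hmgcs1 shows this: at time 0 it read 2349.5, 2496, 2512 and 2483 in PKBa-/- cells and 2844, 2989, 1727 and 1639.7 in wild type cells, where the first 2 wild type arrays stood above all PKBa-/- arrays and the last 2 below them. Mvd, in contrast, already lay apart at time 0, although it did not pass. It read 323, 315, 335 and 353 in PKBa-/- cells and 264, 275, 161 and 156 in wild type cells.

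At time 6, 1 sterol gene passed as higher and 2 as lower, beside 8.51% and 8.02% of all genes, with a median of -0.25 against 0.02 for all genes. Higher was Hsd17b7 (0.57 ± 0.18, adjusted p = 0.0471), and lower were Mvk (-0.91 ± 0.18, adjusted p = 0.0039) and the lathosterol desaturase Sc5d (-0.68 ± 0.19, adjusted p = 0.0285). Sc5d read 262, 270.2, 233 and 227 in PKBa-/- cells and 440.1, 449, 379 and 393 in wild type cells, without overlap. Hsd17b7 read 919, 866, 763 and 913 in PKBa-/- cells and 616, 604, 528 and 539 in wild type cells, also without overlap. Its call lay at the threshold and was lost in 11 of the alternatives and leave-outs tried, with an adjusted p of up to 0.0828. The Sc5d call was lost with the mean of all probe sets (adjusted p = 0.0812).

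Mvk and Pmvk, which encode the 2 kinases that phosphorylate mevalonate one after the other, were highest at the early times in wild type cells. Mvk read 466, 492, 435 and 464 at time 0, 471 and 448 at time 2, 340.5, 359, 330.0 and 361 at time 6, 517, 477, 341 and 365 at time 24 and 354, 354, 352 and 305 at time 48 in PKBa-/- cells. Wild type cells gave 488, 549, 347 and 355 at time 0, 1934 and 1960.1 at time 2, 728, 654, 737 and 617 at time 6, 311, 299, 299.8 and 314 at time 24 and 295, 324, 239.7 and 252 at time 48. Both wild type arrays of time 2 stood far above every other array of either genotype, and the 4 wild type arrays of time 6 came next. At time 2 the genotypes differed by -2.01 ± 0.25 (adjusted p = 0.000315), which is 4.03-fold lower in PKBa-/- cells. At time 6 the difference was -0.92 within replicates 1 and 2 and -0.91 within replicates 3 and 4.

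Pmvk read 166, 178, 171 and 231 at time 0, 239 and 271 at time 2, 619.9, 534, 522 and 505 at time 6, 262, 228, 189 and 171 at time 24 and 164, 166, 144 and 167 at time 48 in PKBa-/- cells. Wild type arrays gave 197, 185, 138 and 130.5 at time 0, 1520.4 and 1602 at time 2, 1505, 1554, 683 and 552 at time 6, 198, 226, 126 and 92.5 at time 24 and 105, 107, 102 and 114 at time 48. The PKBa-/- arrays were highest at time 6. At time 6 wild type replicates 1 and 2 read about as high as at time 2 while replicates 3 and 4 lay near the PKBa-/- arrays. The genotypes differed by -2.48 ± 0.48 (adjusted p = 0.00838) at time 2, or 5.56-fold lower in PKBa-/- cells, and by -0.80 ± 0.34 at time 6, which did not pass (adjusted p = 0.135).

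At time 2 these were the 2 sterol genes that passed as lower in PKBa-/- cells, with 0 higher, beside 2.81% of all genes lower and 2.97% higher. Time 2 had 1 pair of arrays per genotype, and its spread was taken from the other groups. The time 0 mean also holds replicates 3 and 4, on which wild type cells read lower for Mvk and Pmvk. The changes to time 2 in wild type cells, and their differences from PKBa-/- cells, thus include a difference between pairs. From time 0 to time 2, Mvk changed by -0.01 ± 0.22 in PKBa-/- cells and by 2.11 ± 0.22 (adjusted p = 0.000129) in wild type cells, and the difference between these changes, -2.12 ± 0.31 (adjusted p = 0.00949), passed, as did 0.242% of all genes. For Pmvk the changes were 0.40 ± 0.42 in PKBa-/- cells, which did not pass, and 3.05 ± 0.42 (adjusted p = 0.00122) in wild type cells, which did. The difference between them, -2.65 ± 0.59, did not pass (adjusted p = 0.152). A dimmer probe set of Mvk gave a genotype difference of -1.31 ± 0.24 at time 2.

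The annotated start of Mvk lies close to that of Mmab, a gene of vitamin B12 metabolism on the opposite strand, and 259 bases of the 2 promoter windows are shared. Mmab, chosen after its values were seen, had a mean signal of 241 ± 4.24 (SD, n = 2) in PKBa-/- cells and 273 ± 14.1 in wild type cells (SD, n = 2) at time 2. Its change from time 0 to time 2 in wild type cells was -0.12 ± 0.25 and did not pass (adjusted p = 0.901).

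**Figure D2:**
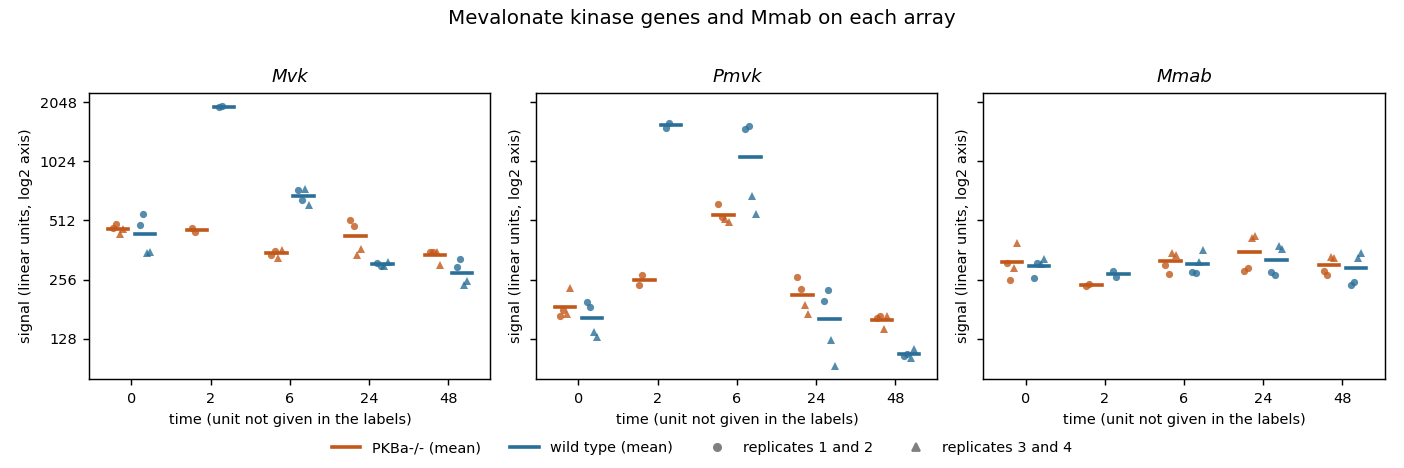
Signal of Mvk, Pmvk and Mmab on every array (log2 axis, the same in the 3 panels) by time, PKBa-/- left of wild type at each time, with bars at the group means, circles for replicates 1 and 2 and triangles for replicates 3 and 4. At time 2 the wild type arrays of Mvk and Pmvk lie from 1520 to 1960, far above the PKBa-/- arrays. Wild type Pmvk replicates 1 and 2 of time 6 read 1505 and 1554, as high as at time 2. Mmab stays between 238 and 427 on all arrays.

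The next comparison followed each genotype from time 0. In wild type cells the sterol genes fell late. At time 48, 12 of 20 sterol genes passed as lower than at time 0 and 0 as higher, beside 3.89% and 2.12% of all genes. The median change was -0.83 against -0.02 for all genes, and -0.95 within replicates 1 and 2 and -0.59 within replicates 3 and 4. At time 24, 7 passed as lower and 0 as higher, beside 3.46% and 2.21% of all genes, with a median of -0.60, which was -0.81 and -0.30 within the 2 pairs. After quantile normalization the share of higher genes among all genes that passed at time 48 was 46.7%, against 35.3% without it. With arrays as replicates 17 sterol genes were called lower at time 24, beside 1115 of all 7436 genes, and with a random effect for pairs 11, beside 408.

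Fdps had the largest fall of the sterol genes by time 48 in wild type cells. It read 423, 374, 362 and 309 at time 48 and 610.4, 643, 393 and 418 at time 24, against 1989, 2098, 967 and 937 at time 0. All arrays of both late times lay below all arrays of time 0, and at time 0 replicates 3 and 4 lay well below replicates 1 and 2. The change was -1.85 ± 0.29 (adjusted p = 0.00326) by time 48, with -2.27 and -1.43 within the pairs, and -1.41 ± 0.29 (adjusted p = 0.0139) by time 24, with -1.66 and -1.17 within the pairs (replicates 1 and 2 first throughout). Hmgcs1 changed by -1.71 ± 0.28 (adjusted p = 0.00442) and -1.43 ± 0.28 (adjusted p = 0.0119) by these times, and its late arrays also lay below all those of time 0. Within the pairs Hmgcs1 changed by -1.81 and -1.60 by time 48, and by -1.52 and -1.35 by time 24.

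Msmo1 read 449, 382, 405 and 297 at time 48 and 544, 523, 449.8 and 459.9 at time 24, against 1732, 1719, 924 and 909 at time 0, in wild type cells. The late arrays lay below all time 0 arrays, and the change was -1.65 ± 0.28 (adjusted p = 0.00463) by time 48 and -1.30 ± 0.28 (adjusted p = 0.0171) by time 24. Within the pairs Msmo1 changed by -1.98 and -1.32 by time 48, and by -1.64 and -0.96 by time 24. The other sterol genes that had passed as lower by time 48 were Idi1 (-1.59, -1.91 and -1.27 within the pairs), Cyp51 (-1.51, -1.56 and -1.47 within the pairs), Fdft1 (-1.36, -1.74 and -0.98 within the pairs), Sqle (-1.34, -1.70 and -0.98 within the pairs), Sc5d (-0.98, -1.07 and -0.89 within the pairs), Nsdhl (-0.95, -1.43 and -0.47 within the pairs), Lss (-0.88, -1.14 and -0.63 within the pairs), Ebp (-0.78, -0.81 and -0.76 within the pairs) and Srebf2 (-0.52, -0.68 and -0.36 within the pairs). By time 24 the other genes that passed as lower were Idi1 (-1.27, -1.56 and -0.99 within the pairs), Sqle (-1.18, -1.52 and -0.85), Fdft1 (-1.11, -1.27 and -0.96) and Sc5d (-0.71, -0.74 and -0.68). From time 6 to time 24 alone, 11 sterol genes passed as lower and 0 as higher in wild type cells, beside 4.38% and 4.71% of all genes, with a median of -0.76.

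Before that fall, 3 sterol genes passed as higher at time 2 in wild type cells and 0 as lower, beside 1.3% and 1.43% of all genes. They were Mvk, Pmvk and Hsd17b7 (0.98 ± 0.22, adjusted p = 0.0343). Hsd17b7 read 559 and 629 at time 2 on replicates 1 and 2. At time 0 it read 369 and 373 on these replicates and 207 and 227 on replicates 3 and 4. The changes of the 3 genes to time 2 are thus larger than those within replicates 1 and 2. At time 6, 3 passed as higher and 0 as lower, beside 4.22% and 7.69% of all genes. These were again Pmvk (2.38 ± 0.34, adjusted p = 0.00119), Hsd17b7 (0.93 ± 0.18, adjusted p = 0.00673) and Mvk (0.64 ± 0.18, adjusted p = 0.0375). Within the pairs the changes by time 6 were 2.81 and 1.96 for Pmvk, 0.67 and 1.18 for Hsd17b7, and 0.39 and 0.88 for Mvk. The Mvk call was lost in 3 of the alternatives and leave-outs, with an adjusted p of up to 0.0582.

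The same comparison was made in PKBa-/- cells. At time 24, 0 sterol genes passed as higher and 0 as lower in limma, beside 2.8% and 3.35% of all genes, 3 had an unadjusted p under 0.05, and the median change was -0.11. Hmgcs1, for example, read 2834, 2692, 1837 and 1695 at time 24 against 2349.5, 2496, 2512 and 2483 at time 0. Replicates 1 and 2 lay above their time 0 values and replicates 3 and 4 below them. At time 48, 4 sterol genes passed as lower and 0 as higher, beside 4.38% and 3.07% of all genes, with a median of -0.51. With arrays as replicates 14 sterol genes were called lower, with a random effect for pairs 9, and after quantile normalization 7. Of all 7436 genes, 1117, 485 and 431 were called lower in these settings.

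The 4 genes lower at time 48 in PKBa-/- cells were Fdps, Msmo1, Fdft1 and Stard4 (-0.65 ± 0.15, adjusted p = 0.0183). Fdps read 678, 799, 753 and 706 at time 48 against 1774, 1924, 2064 and 2289.7 at time 0 (-1.41 ± 0.29, adjusted p = 0.0105). Msmo1 read 686, 767, 589.7 and 702 against 1743, 1655, 1593 and 1309 (-1.16 ± 0.28, adjusted p = 0.024), and Fdft1 read 400.4, 426, 308 and 352 against 827, 889, 717 and 843 (-1.08 ± 0.25, adjusted p = 0.0189). In all 3 genes the arrays of time 48 lay below those of time 0. The Fdft1 call was lost with the mean of all probe sets (adjusted p = 0.0519).

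At time 6 in PKBa-/- cells, 2 of 20 tested sterol genes passed as higher and 2 as lower. These counts lay near the shares of all genes that passed, 8.59% higher and 9.78% lower. The median change of the sterol genes was -0.37, against -0.01 for all genes, with 16 changes below 0 and 4 above. Higher were Pmvk (1.41 ± 0.34, adjusted p = 0.0133) and Hsd17b7 (1.18 ± 0.18, adjusted p = 0.00113), and lower were Fdft1 (-0.83 ± 0.25, adjusted p = 0.0359) and Sc5d (-0.71 ± 0.19, adjusted p = 0.0204). The Fdft1 call was lost in 3 of the alternatives and leave-outs (adjusted p up to 0.0613). A dimmer probe set of Sc5d showed no such fall (-0.06 ± 0.11, adjusted p = 0.83 in the fit of single probe sets). Hsd17b7 read 919, 866, 763 and 913 at time 6 against 395, 364, 355 and 339 at time 0, with no overlap. At time 2, 1 sterol gene had passed as higher, Hsd17b7 (1.01 ± 0.22, adjusted p = 0.0264), and 0 as lower, beside 2.15% and 1.24% of all genes. The count of lower sterol genes at time 6 was 11 with arrays as replicates, 7 with a random effect for pairs, 4 after quantile normalization and 1 without the filter on low signals, or without PKBa-/- time 0 replicate 4. Of all 7436 genes, 1528 were lower with arrays as replicates, 880 with the random effect and 857 after quantile normalization. Without the filter 754 of 12393 were.

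From time 6 to time 24, 1 sterol gene passed as higher in PKBa-/- cells, Dhcr7 (0.68 ± 0.20, adjusted p = 0.0351), and 2 as lower, Pmvk (-1.25) and Hsd17b7 (-0.79), beside 8.66% and 9.2% of all genes. The median from time 6 to time 24 was 0.33 in PKBa-/- cells and -0.76 in wild type cells. Within replicates 1 and 2 these medians were 0.55 in PKBa-/- cells and -0.65 in wild type cells, and within replicates 3 and 4 they were 0.15 in PKBa-/- cells and -0.84 in wild type cells.

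**Figure D3:**
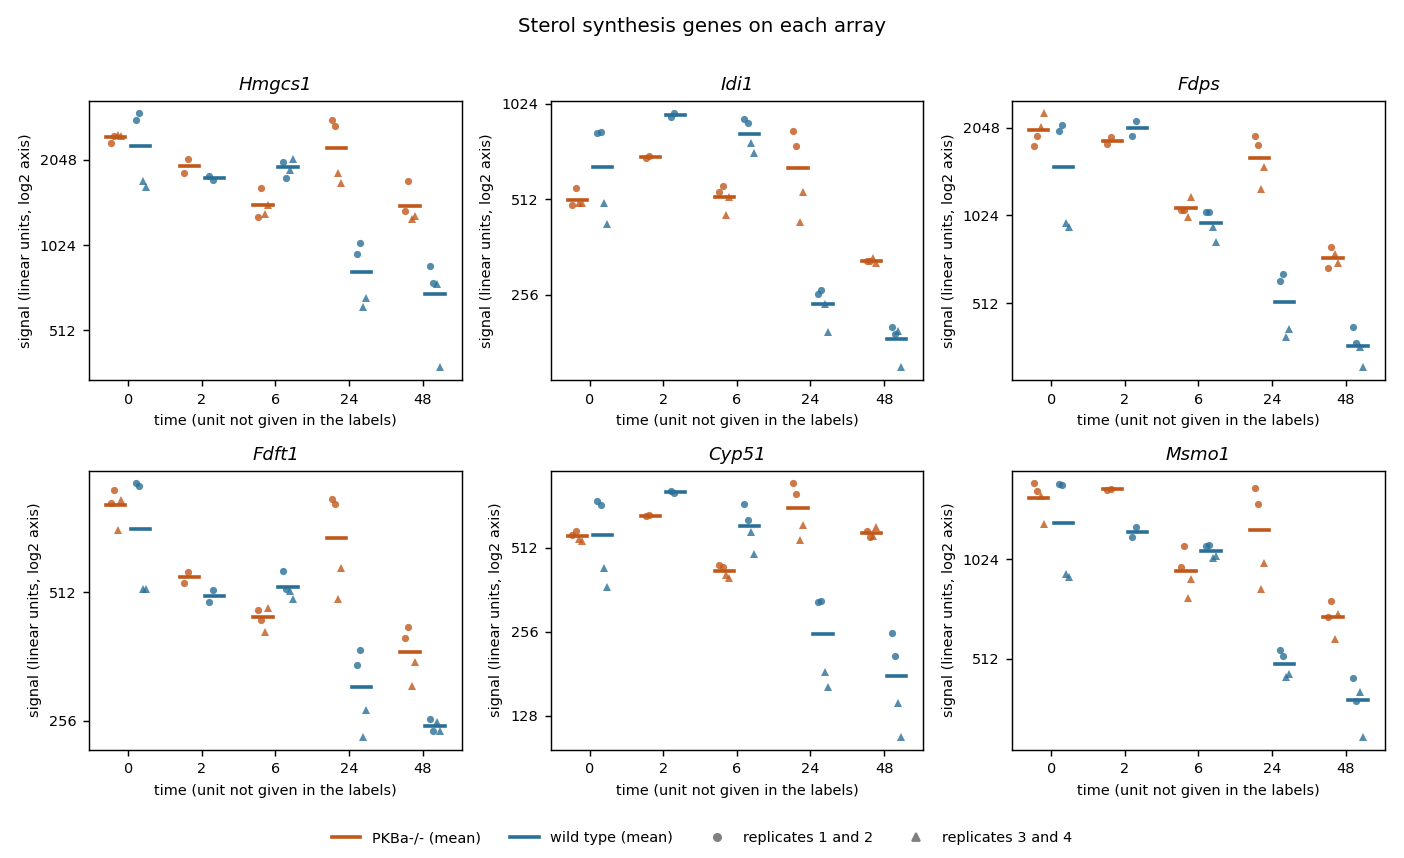
Signal of 6 sterol genes, picked among those that passed as higher at time 24, on every array (log2 axis) by time. PKBa-/- is left of wild type at each time, with bars at the group means, circles for replicates 1 and 2 and triangles for replicates 3 and 4. At times 24 and 48 all PKBa-/- arrays lie above all wild type arrays in the 6 panels, although Fdft1 and Msmo1 did not pass at time 48. At time 0 wild type replicates 1 and 2 lie above wild type replicates 3 and 4.

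Whether the genotypes changed differently over time was tested directly. Over the 4 later times together, an F test called 2 of 20 sterol genes, Mvk (adjusted p = 0.00408) and Idi1 (adjusted p = 0.0396), beside 1.75% of all genes. For the difference between the genotypes in the change from time 0 to time 24, no sterol gene passed in limma, beside 0.726% of all genes. At an unadjusted p under 0.05 there were 11 of 20, and the share of all genes at that limit is not given here. The median of that difference was 0.74, with 1.17 within replicates 1 and 2 and 0.25 within replicates 3 and 4. Idi1 had the largest of these differences (1.54 ± 0.35, adjusted p = 0.0786). All 20 were above 0 in the fit, but within replicates 3 and 4 some were below 0, Mvk among them. The count by the F test was 16 with arrays as replicates and 14 with a random effect for pairs, and 1 with a larger offset, without the filter on low signals, with the mean of all probe sets, without wild type time 0 replicate 3 or without PKBa-/- time 24 replicate 4. Of all 7436 genes, the F test called 1614 with arrays as replicates and 501 with the random effect.

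**Figure D4:**
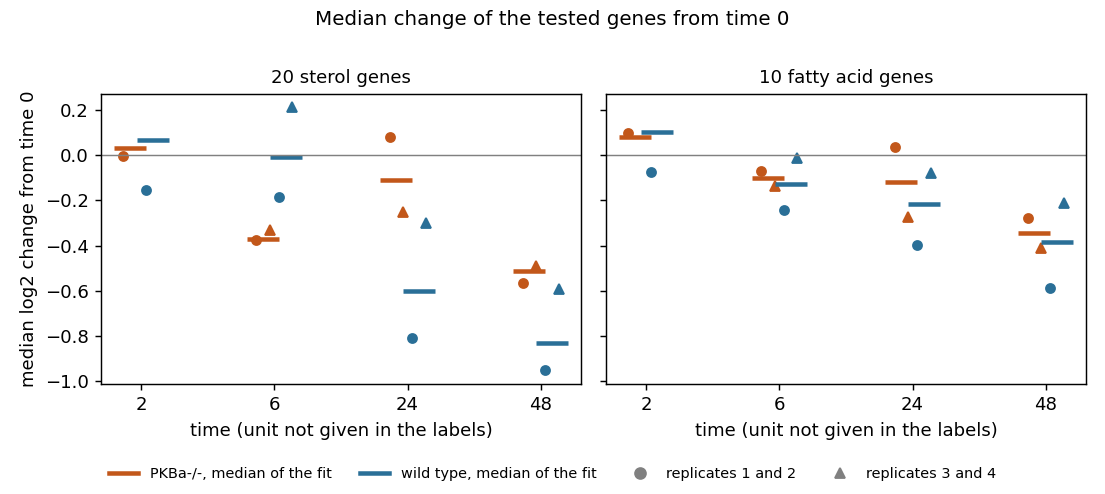
Median log2 change from time 0 of the 20 tested sterol genes (left) and 10 tested fatty acid genes (right) by time, PKBa-/- left of wild type, with bars for the median in the fit, circles within replicates 1 and 2 and triangles within replicates 3 and 4 (absent at time 2). The sterol median at time 24 is -0.11 in PKBa-/- cells and -0.60 in wild type cells, and the 2 pairs of wild type lie apart.

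Of the regulators, Srebf2 read 704, 547, 839 and 717 at time 48 in PKBa-/- cells and 679.8, 656, 679.8 and 702 in wild type cells, with overlapping arrays, and its genotype differences lay between -0.16 at time 2 and 0.10 at time 24, none of which passed. It fell in wild type cells by time 48 (-0.52 ± 0.13, adjusted p = 0.0331), and the change in PKBa-/- cells was -0.43 ± 0.13 (adjusted p = 0.0659). Srebf1 read 405, 436, 388 and 380.2 in PKBa-/- cells and 584, 590.1, 447 and 471 in wild type cells at time 0, without overlap, a difference that did not pass (-0.35 ± 0.15, adjusted p = 0.14). Averaged over the 5 times Srebf1 was lower in PKBa-/- cells (-0.26 ± 0.07, adjusted p = 0.01).

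The fatty acid genes moved in both directions. Averaged over the 5 times, 5 of 10 passed as lower in PKBa-/- cells and 1 as higher, with a median of -0.20, while 8 sterol genes passed as higher and 2 (Mvk and Pmvk) as lower, with a median of 0.12. Of all genes, 20.9% passed as lower and 26.5% as higher, and the count of lower fatty acid genes stands beside that background. The lower genes were Fads2, Scd1, Me1, Fads1 and Srebf1, and the higher gene was Elovl6. At times 24 and 48, Elovl6 passed as higher and Me1 and Fads2 as lower, with the backgrounds given for these times above. At time 0 Fads2 alone passed. At time 2, 0 passed as higher and 0 as lower in limma (1 with an unadjusted p under 0.05), and at time 6, 0 and 0 (4 with an unadjusted p under 0.05).

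Elovl6, the elongase that turns palmitate into stearate, read 883, 852, 711 and 711 in PKBa-/- cells and 412, 375, 232 and 286 in wild type cells at time 24. The groups did not overlap, and the difference was 1.22 ± 0.29 (adjusted p = 0.0107). At time 48 it read 706, 683, 664 and 717 in PKBa-/- cells and 381, 426, 205 and 216 in wild type cells (1.16 ± 0.29, adjusted p = 0.0128), or 2.23-fold, and wild type replicates 3 and 4 were the lowest arrays. Its profile over the 18 pair averages correlated with the mean standardized profile of the tested sterol genes at 0.84, beside 0.82 for Acly, the citrate lyase that makes cytosolic acetyl-CoA, and -0.01 for Elovl5. These correlations describe pairs that share genotypes and times.

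Me1, the cytosolic malic enzyme that supplies NADPH, fell over time in PKBa-/- cells. It read 968, 887, 1168 and 1299 at time 0, 1105 and 1082 at time 2, 584, 584, 669 and 661 at time 6, 438, 467, 513 and 444 at time 24 and 339, 332, 423 and 425 at time 48 in PKBa-/- cells. Wild type cells gave 1277, 1204, 1165 and 1168 at time 0, 1150.2 and 1157 at time 2, 936, 999, 1081 and 1140.2 at time 6, 705, 684, 1055 and 1024 at time 24 and 640.5, 624, 1053 and 988 at time 48. The PKBa-/- arrays of time 48 lay below all those of time 0, and below all wild type arrays of time 48. The change by time 48 was -1.43 ± 0.23 (adjusted p = 0.00236) in PKBa-/- cells and -0.56 ± 0.23 in wild type cells, which did not pass (adjusted p = 0.186), and the difference between the 2 changes did not pass either (-0.86 ± 0.32, adjusted p = 0.311). In PKBa-/- cells Me1 had also passed by time 24 (-1.15 ± 0.23, adjusted p = 0.0112) and by time 6 (-0.75 ± 0.23, adjusted p = 0.0393), and the call at time 6 was lost in 3 of the alternatives and leave-outs (adjusted p up to 0.0683). The genotypes differed by -1.03 ± 0.23 (adjusted p = 0.00633) at time 48 and by -0.83 ± 0.23 (adjusted p = 0.0221) at time 24.

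Fads2 and Fads1 encode the desaturases of polyunsaturated fatty acid synthesis. Fads2 read 689, 693, 787 and 824 in PKBa-/- cells and 1357, 1238, 1399 and 1658 in wild type cells at time 48. No array of one group reached the other, and the difference was -0.89 ± 0.14 (adjusted p = 0.000699). It was -0.50 ± 0.14 (adjusted p = 0.0242) at time 24, a call lost without PKBa-/- time 24 replicate 3 (adjusted p = 0.0516), and -0.55 ± 0.14 (adjusted p = 0.0201) at time 0, a call lost after quantile normalization (adjusted p = 0.0618). By time 48 Fads2 had changed by -0.74 ± 0.14 (adjusted p = 0.00696) in PKBa-/- cells and by -0.40 ± 0.14 in wild type cells (adjusted p = 0.122). Fads1 differed by -0.34 and -0.36 at times 24 and 48, which did not pass.

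Scd1, the stearoyl-CoA desaturase that makes monounsaturated fatty acids, peaked at time 6 in both genotypes. It read 4304, 4316, 4018 and 3987 at time 6 against 1237, 1265, 1320.3 and 1463 at time 0 in PKBa-/- cells, and 5451, 5259, 5411 and 5869.7 at time 6 against 2695, 2613, 1508 and 1590.1 at time 0 in wild type cells. In each genotype all arrays of time 6 stood above all arrays of time 0. The change was 1.63 ± 0.21 (adjusted p = 0.000397) in PKBa-/- cells, or 3.1-fold, and 1.42 ± 0.21 (adjusted p = 0.00128) in wild type cells (1.00 and 1.84 within the pairs), and the difference between them was 0.21 ± 0.29 (adjusted p = 0.959). From time 6 to time 24 Scd1 fell again, with a change of -1.32 ± 0.21 (adjusted p = 0.00165) in PKBa-/- cells and -1.30 ± 0.21 (adjusted p = 0.00417) in wild type cells. Averaged over the times Scd1 was lower in PKBa-/- cells (-0.56 ± 0.10, adjusted p = 0.000671).

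Fasn, the fatty acid synthase, also rose by time 6. It read 1366, 1329.8, 1093 and 1318 against 702, 696, 650.5 and 543 at time 0 in PKBa-/- cells (0.95 ± 0.18, adjusted p = 0.00337). In wild type cells the change was 0.73 ± 0.18 (adjusted p = 0.0194), with 0.44 and 1.02 within the pairs. At time 6, 3 fatty acid genes passed as higher in PKBa-/- cells, Scd1, Fasn and Elovl5 (0.50 ± 0.15, adjusted p = 0.0332), and 3 as lower, Me1, Fads1 (-0.66 ± 0.18, adjusted p = 0.025) and Fads2 (-0.59 ± 0.14, adjusted p = 0.0128), beside 8.59% and 9.78% of all genes. In wild type cells 2 passed as higher, Scd1 and Fasn, and 2 as lower, Fads1 (-0.88 ± 0.18, adjusted p = 0.00965) and Fads2 (-0.75 ± 0.14, adjusted p = 0.00596), beside 4.22% and 7.69% of all genes. Within the pairs Fads1 changed by -0.95 and -0.81 and Fads2 by -0.89 and -0.61 in wild type cells. Fads1 read 1030.0, 962, 919 and 903 at time 6 against 2025, 1873, 1558 and 1678 at time 0 in wild type cells, and Fads2 read 1098, 975, 1163 and 1170.1 against 1903, 1985, 1680.4 and 1928. Both genes had lower arrays at time 6 than at time 0 throughout. At time 6 Scd1 and Fasn were thus higher, and Fads1 and Fads2 lower, in both genotypes.

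At the other times few fatty acid genes changed. At time 2, Elovl5, an elongase of polyunsaturated fatty acids, passed as higher in PKBa-/- cells (0.84 ± 0.18, adjusted p = 0.0251), where 2.15% of all genes did; in wild type cells 0 passed as higher and 0 as lower in limma, and 1 had an unadjusted p under 0.05, beside 1.3% and 1.43% of all genes. At time 24, Me1 passed as lower in PKBa-/- cells, where 3.35% of all genes did, and 0 and 0 genes passed as higher and lower in wild type cells, with 2 at an unadjusted p under 0.05, beside 2.21% and 3.46% of all genes. At time 48, Me1 and Fads2 passed as lower in PKBa-/- cells and Fads1 in wild type cells (-0.69 ± 0.18, adjusted p = 0.0444), a call lost in 8 of the alternatives and leave-outs (adjusted p up to 0.0732). Of all genes, 4.38% passed as lower by time 48 in PKBa-/- cells and 3.89% in wild type cells. Within the pairs Fads1 changed by -0.72 and -0.65 by time 48 in wild type cells. From time 6 to time 24, 1 gene fell in PKBa-/- cells, Scd1, and 2 fell in wild type cells, Scd1 and Fasn (-0.68), where Fads2 rose (0.52). Of all genes, 9.2% fell between these times in PKBa-/- cells and 4.38% in wild type cells, where 4.71% rose. Scd2, another stearoyl-CoA desaturase, read between 2267 and 3589 on all arrays and passed in none of these comparisons, nor did Acly, which read between 786 and 1775.

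**Figure D5:**
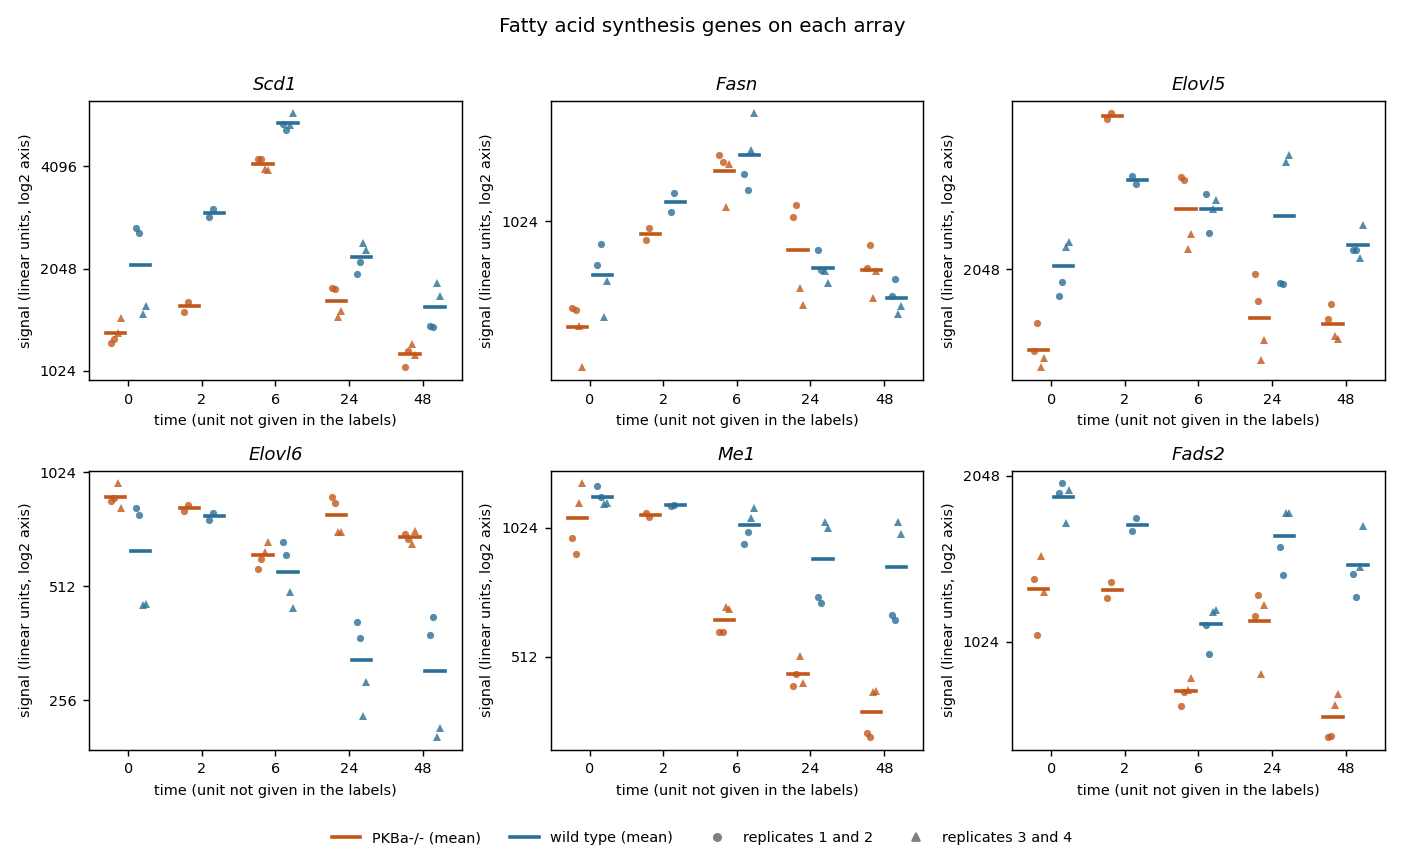
Signal of 6 fatty acid genes on every array (log2 axis) by time, PKBa-/- left of wild type at each time, with bars at the group means, circles for replicates 1 and 2 and triangles for replicates 3 and 4. Scd1 is highest at time 6 in both genotypes, up to 4316 in PKBa-/- cells and 5870 in wild type cells, Elovl6 is lower in wild type cells at times 24 and 48, and Me1 is lower in PKBa-/- cells at those times.

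Of the 64 probe sets, 50 were bright enough to be tested singly. The 20 that were not the brightest of their gene had the sign of the brightest one in 20 of 20 cases for the genotype difference at time 24 and at time 48, and in 19 of 20 for the change by time 24 and 20 of 20 for that by time 48 in wild type cells. Acaca, the acetyl-CoA carboxylase, read between 53.0 and 208, and Acss2, an acetyl-CoA synthetase, between 79.5 and 156, and neither was tested.

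Other genes of lipid metabolism were read from lists of related genes. Their counts averaged over the times stand beside 26.5% of all genes higher and 20.9% lower in PKBa-/- cells. Of 6 other tested genes of sterol synthesis and uptake, Mylip, a ubiquitin ligase of the LDL receptor, was higher in PKBa-/- cells averaged over the times (1.88 ± 0.22, adjusted p = 1.87e-05) and 1 was lower. Scarb1, the HDL receptor, fell by time 48 in PKBa-/- cells (-1.26 ± 0.11, adjusted p = 3.97e-05) and Lrp1, a lipoprotein receptor, rose (0.74 ± 0.20, adjusted p = 0.0433). Of 7 genes around SREBP processing, 3 were higher and 1 lower averaged over the times. The higher ones were Scap, the escort of the SREBPs (0.77 ± 0.10, adjusted p = 3.46e-05), the protease Mbtps1 (0.58 ± 0.08, adjusted p = 6.55e-05) and the NF-Y subunit Nfya (0.49 ± 0.07, adjusted p = 0.000167). At time 24 1 of the 7, Scap (0.92), passed as higher, beside 9.79% of all genes.

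In the isoprenoid branch, 1 of 4 tested genes, Ggps1, which makes geranylgeranyl diphosphate, was lower averaged over the times (-0.22 ± 0.05, adjusted p = 0.00451). Of 2 tested genes of sterol efflux and the oxysterol receptors, Abca1, the cholesterol exporter, rose by time 6 in PKBa-/- cells (1.55 ± 0.26, adjusted p = 0.00186), and its change in wild type cells was -0.60 ± 0.26 and did not pass. Among 6 genes of NADPH supply, 2 were higher and 2 lower averaged over the times, with Idh2 (0.34) and Pgls (0.37) higher and Taldo1 (-0.72) among the lower.

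Of 6 other tested genes of fatty acid synthesis, elongation and activation, 2 were higher and 2 lower averaged over the times, with the elongase Elovl1 lower (-0.56 ± 0.07, adjusted p = 1.99e-05). Fads3 (-1.45 ± 0.19, adjusted p = 0.000653) and the acyl-CoA synthetase gene Acsl5 (-0.98 ± 0.14, adjusted p = 0.00131) fell by time 48 in PKBa-/- cells. Among 9 genes of triglyceride synthesis and lipid droplets, 3 were higher and 3 lower. Gpam, the glycerol-phosphate acyltransferase, was lower (-1.37 ± 0.11, adjusted p = 7.45e-07), as was the diacylglycerol acyltransferase Dgat1 (-0.86 ± 0.08, adjusted p = 2.33e-06). The lipid droplet coat gene Plin2 fell by time 6 in PKBa-/- cells (-2.17 ± 0.11, adjusted p = 1.13e-06) and in wild type cells (-1.46 ± 0.11, adjusted p = 1.18e-05). Dgat1 also differed early: by time 2 it had changed by 0.57 ± 0.20 in PKBa-/- cells, which did not pass, and by 2.61 ± 0.20 (adjusted p = 9.26e-06) in wild type cells. Of 11 tested genes of fatty acid oxidation, 6 were lower and 0 higher averaged over the times, beside 20.9% and 26.5% of all genes. Among the lower were Acaa2 (-0.56 ± 0.09, adjusted p = 0.000202) and the carnitine carrier Slc25a20 (-0.46 ± 0.08, adjusted p = 0.000444), and Acadl fell by time 6 in PKBa-/- cells (-1.18 ± 0.13, adjusted p = 0.000196).

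The cell type was checked on marker genes, and other features moved with the genotype. All 12 fibroblast markers were measured and tested, with a summed signal of 68790.1 to 78667 in PKBa-/- cells and 58874 to 73537 in wild type cells; at time 24, 6 were higher and 2 lower in PKBa-/- cells, beside 9.79% and 10.7% of all genes. Dcn, which encodes decorin, was lower averaged over the times (-3.15 ± 0.18, adjusted p = 3.15e-08) while S100a4 (1.69) and Pdgfrb (1.32) were higher. Of 7 mesothelial markers 4 were measured, summing to 178 to 248 in PKBa-/- cells and 4417 to 7368 in wild type cells, and Upk3b (-5.61) and Wt1 (-3.71) were lower in PKBa-/- cells. Adipocyte markers (9 of 12 measured) summed to 1392 to 2462 in PKBa-/- cells and 2883 to 6066 in wild type cells. Lpl, lower in PKBa-/- cells (-1.86), read 524 to 1551 in PKBa-/- cells and 2088 to 5384 in wild type cells, Adipoq stayed between 13.9 and 24.9 on all arrays, and Cebpa was higher in PKBa-/- cells at time 24 (0.96). Endothelial markers (7 of 7 measured, 1 tested) summed to 358 to 586 in PKBa-/- cells and 588 to 1772 in wild type cells. This gap lay in Kdr (-1.76), with median signals of 230 in PKBa-/- cells and 890 in wild type cells. Every other endothelial marker read at most 73.8 on any array. Macrophage markers (8 of 8 measured, 2 tested) summed to 468 to 725 in PKBa-/- cells and 588 to 1135 in wild type cells. Cd14 was lower (-1.30), with medians of 75.9 in PKBa-/- cells and 222 in wild type cells. The brightest of the other macrophage markers, Csf1r, had medians of 225 in PKBa-/- cells and 205 in wild type cells. Epithelial markers (8 of 8) summed to 447 to 640.4 in PKBa-/- cells and 494 to 606 in wild type cells. No marker measured read 0 on any array, but 0 of the 8 epithelial markers were bright enough to be tested. Cdh1, for example, read from 12.0 to 16.8.

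Mitosis genes were read as well. Of 15 tested genes, 3 were higher in PKBa-/- cells at time 24 and 6 at time 48, with none lower, beside 9.79% and 12.4% of all genes higher at these times, and the summed signal ran from 4266 to 15655 in PKBa-/- cells and from 5678 to 12082 in wild type cells over all times. Their median at time 24 was 0.79 within replicates 1 and 2 and -0.05 within replicates 3 and 4, where the sterol median was 0.85 and 0.71. From time 6 to time 24, 13 rose in PKBa-/- cells, among them Ccnb2 (2.60), Kif20a (1.71) and Mki67 (1.37), and 1 in wild type cells, beside 8.66% of all genes in PKBa-/- cells and 4.71% in wild type cells. The part of the mesothelial, adipocyte, endothelial and macrophage markers in these differences was not tested.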

How the data were processed

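The values deposited by the authors are linear-scale intensities of probe sets on 36 Affymetrix arrays. Their background correction, summary and scaling are not given in the sources used here. Precision is limited by how many arrays there are. Of 22690 probe sets, 20380 with 1 gene symbol were kept, and 691 with several, 1555 with none and 64 controls were left out. Each gene was read on its brightest probe set, the lowest 40% of genes by mean signal were not tested, and log2(signal + 32) was fitted with limma 3.58.1 in R 4.3.3 (group means, 18 pair averages, 8 residual degrees of freedom, Benjamini-Hochberg adjustment per comparison at 0.05). The fit was tested on simulated data. Tables and figures were made with Python 3.11.15.

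Members and lists were chosen with earlier results of these data known. The rule for array values took the 3 members of each list with the largest difference among those that passed in each comparison of the genotypes or of a time with time 0, except at time 2, plus Srebf1 and Srebf2. Each was given array by array at least where its difference was largest and elsewhere often by its difference alone. Idi1 and Mmab fall outside this rule and were chosen after their values were seen. From each other list up to 3 genes with the smallest adjusted p were named. Promoters were matched by symbol to RefSeq windows (GRCm38.p6), which found 28 of the 35 genes. Alternatives were arrays as replicates, a random pair effect, replicate blocks, other offsets and filters, the mean of probe sets, quantile normalization, an intensity trend, each pair alone and leaving out each array.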

Additional observations from a re-analysis of the deposited data

Results flagged for a closer look

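In 9 of 240 groups of 4 arrays, 1 array stood far from the other 3. Mvk read 305 in PKBa-/- cells at time 48 on replicate 4, against 352 to 354 on the others. Pmvk read 144 in PKBa-/- cells at time 48 on replicate 3, against 164 to 167. Idi1 read 554 in PKBa-/- cells at time 0 on replicate 2, against 490 to 499.5. Tm7sf2 read 157 in PKBa-/- cells at time 6 on replicate 3, against 189 to 193, and 120 in wild type cells at time 48 on replicate 3, against 181 to 186. Hsd17b7 read 356 in PKBa-/- cells at time 48 on replicate 3, against 397 to 403. In wild type cells Ebp read 348 at time 6 on replicate 4 (others 463 to 480), Sc5d 151 at time 48 on replicate 4 (218 to 227) and Srebf1 407 at time 24 on replicate 4 (458 to 466). For 4 independent, normally distributed values, chance alone is known to single out 1 in about 5% of groups. The arrays here come in pairs, so that rate need not hold for them.

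The test of a different change between the genotypes passed for Mvk and Idi1. The change of Mvk from time 0 to time 2, PKBa-/- minus wild type, was -2.12, and the F test over the later times gave an adjusted p of 0.00408 for Mvk and 0.0396 for Idi1 in limma. The count of sterol genes called by that test was 1 in place of 2 with a larger offset, without the filter on low signals, with the mean of probe sets and in 2 of the leave-outs.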

How the results depend on the processing

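The 41 named member results kept their sign in every alternative, and 6 lost their call in at least 1 leave-out and 8 in at least 1 other alternative. The count of sterol genes higher at time 24 in PKBa-/- cells (11), of those lower at time 48 in wild type cells (12) and of fatty acid genes lower on average in PKBa-/- cells (5) stayed within 1.5 times under the alternatives. With arrays as replicates the counts were 13 higher in PKBa-/- cells at time 48, 17 lower by time 24 in wild type cells, 11 lower by time 6 and 14 by time 48 in PKBa-/- cells, and 16 by the F test. Of all 7436 genes, 1978, 1115, 1528, 1117 and 1614 were called so. With a random pair effect the last 4 counts of sterol genes were 11, 7, 9 and 14, beside 408, 880, 485 and 501 of all genes. Quantile normalization gave 4 lower by time 6 and 7 by time 48 in PKBa-/- cells, beside 857 and 431 of all genes. No filter gave 1 by time 6, beside 754 of 12393 genes. The F test called 1 with a larger offset, without the filter and with the mean of probe sets. Leaving out each array gave 11 to 11 genes for the difference at time 24, 6 to 8 for that at time 48, 6 to 8 and 11 to 13 for wild type by times 24 and 48, 1 to 3 and 4 to 6 for PKBa-/- by times 6 and 48, 1 to 3 by the F test and 5 to 5 for the fatty acid genes. Over all genes, arrays as replicates against pair averages called 3169 against 1520 at time 24, 3487 against 1726 at time 48, 2013 against 421 and 2128 against 447 by times 24 and 48 in wild type cells, 3004 against 1366 and 2182 against 554 by times 6 and 48 in PKBa-/- cells, and 1614 against 130 by the F test. The cause of these differences was not tested.

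Replicate numbers were not shown to pair the samples: deviations of same-numbered arrays correlated at -0.212 to 0.719 within a genotype and -0.116 to 0.324 between genotypes. With a replicate block on arrays, 16 sterol genes were higher at time 48 in PKBa-/- cells, 17 lower by time 24 in wild type cells, 12 and 15 lower by times 6 and 48 in PKBa-/- cells, and 17 were called by the F test. Of all 7436 tested genes, that block called 2236 higher at time 48, 1349 lower by time 24 in wild type cells, and 2393 by the F test. It called 1723 and 1321 lower by times 6 and 48 in PKBa-/- cells. With the pairs as a replicate block, the last 4 counts of sterol genes were 14, 6, 11 and 10, beside 597, 1096, 638 and 438 of all genes. With pairs within each genotype they were 15, 11, 14 and 12, beside 977, 1407, 943 and 1111 of all genes.

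Time 2 rests on 1 pair per genotype. Genes below a signal of about 123 were not tested, and the unit of the times and the medium remain unknown.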

Other observations

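Over the 18 pair averages, the 8 tested genes outside the lists whose profiles were most like the mean standardized sterol profile were Cbr2 (Pearson r = 0.89), Prrc1, Psmb5, Cd9 and Phgdh (each 0.87), Psat1 and Atf5 (each 0.86) and Eif3c (0.85). These correlations describe averages that share genotypes and times.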
